A study of Mus musculus with 12 samples.

Results

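The kidney's proximal tubule moves filtered solutes from the urine side (the apical membrane) to the blood side (the basolateral membrane), and 40 genes of its solute transporters were followed across 12 mouse kidney cortex libraries. The members were found by gene symbol in the deposited count table, where all 40 occurred among 55450 rows. All 40 were among the 15708 genes that passed the filter on low counts. They were divided by substrate into 4 sugar, 3 phosphate, 11 amino acid or peptide, 12 organic ion, 7 carboxylate, sulfate or ascorbate and 3 acid-base transporters. Outer cortex was dissected at 12 weeks of age from wild-type (WT) mice and from Tg26 mice. Tg26 mice carry an HIV provirus as a transgene, driven by the viral long terminal repeat, and develop a kidney disease known as HIV-associated nephropathy. Every mouse was treated, either with INT-747 (obeticholic acid, which activates FXR, the nuclear receptor for bile acids) or with nicotinamide riboside (NR, a precursor of NAD). The 4 groups, WT and Tg26 under each agent, held 3 samples each. No untreated group was analysed here, so a treatment difference is INT-747 against NR. The sources used here do not give strain, dose, route or length of treatment.

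Proximal tubule cells reclaim nearly all filtered glucose, amino acids and phosphate with carriers on the apical brush border that are driven by the sodium gradient. Exchangers and uniporters on the basolateral side pass these solutes to the blood. A separate set of organic ion carriers works in the direction of secretion, with uptake from blood on one side and release into urine on the other. Several of these organic ion carriers are known to differ between male and female rodents.

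RNA levels are given in counts-per-million (CPM, scaled between libraries by TMM). Total counts ran from 22286343 to 28952177 per library, and the lowest count of any member in any library was 47. The library labelled Tg26 NR replicate 3 stood apart from the other 11. It had 5816 counts of Xist, the RNA that coats the silenced X chromosome of female cells, against 1 to 8 elsewhere, and 0 counts of the Y-linked gene Ddx3y, against 1038 to 1630 elsewhere. Counts of members called in each comparison are therefore given with and without that library, and so are values that moved much. Its sums for the podocyte (652 CPM), loop of Henle (7773 CPM), distal convoluted tubule (2442 CPM), principal cell (539 CPM) and intercalated cell (535 CPM) marker lists were also above those of the other 11 libraries, whose highest sums were 444, 6142, 1721, 392 and 353 CPM. The part of these differences in the results was not tested. Defining genes of the proximal tubule were abundant in all libraries: the 28 tested proximal tubule identity genes, such as the endocytic receptors Lrp2 and Cubn, summed to 42050 to 78834 CPM, lowest in Tg26 NR replicates 1 and 3. In bulk tissue, fewer cells of a type and less RNA per cell cannot be told apart.

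Together the 40 transporters held 20696 to 26246 CPM in 10 libraries, and less in the other 2, with 16563 CPM in Tg26 NR replicate 1 and 17871 CPM in Tg26 NR replicate 3. Compared per kilobase of exon, which puts genes of different length on 1 scale, the phosphate carrier Slc34a1 was the highest, with a WT median of 1478 CPM per kb. The urate exchanger Slc22a12 (703 CPM per kb), the organic anion exchanger Slc22a6 (485), the basolateral dicarboxylate carrier Slc13a3 (293) and the anion transporter Slc17a1 (289) followed. The glucose carrier of the early segment, Slc5a2, stood at 149 CPM per kb and that of the late segment, Slc5a1, at 13.3. Lowest were the sodium-proton exchanger Slc9a8 (6.98), the neutral amino acid carrier Slc6a15 (4.12) and the organic anion carrier Slco4c1 (1.26). Of the 39 pairs of neighbours in this order, 3 had WT ranges that did not overlap, so the order within the middle of the list is not resolved, given the spread between libraries. The highest library was less than 2-fold above the lowest in 15 of the 40 members, and in 21 when Tg26 NR replicate 3 was left out.

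**Figure D1:**
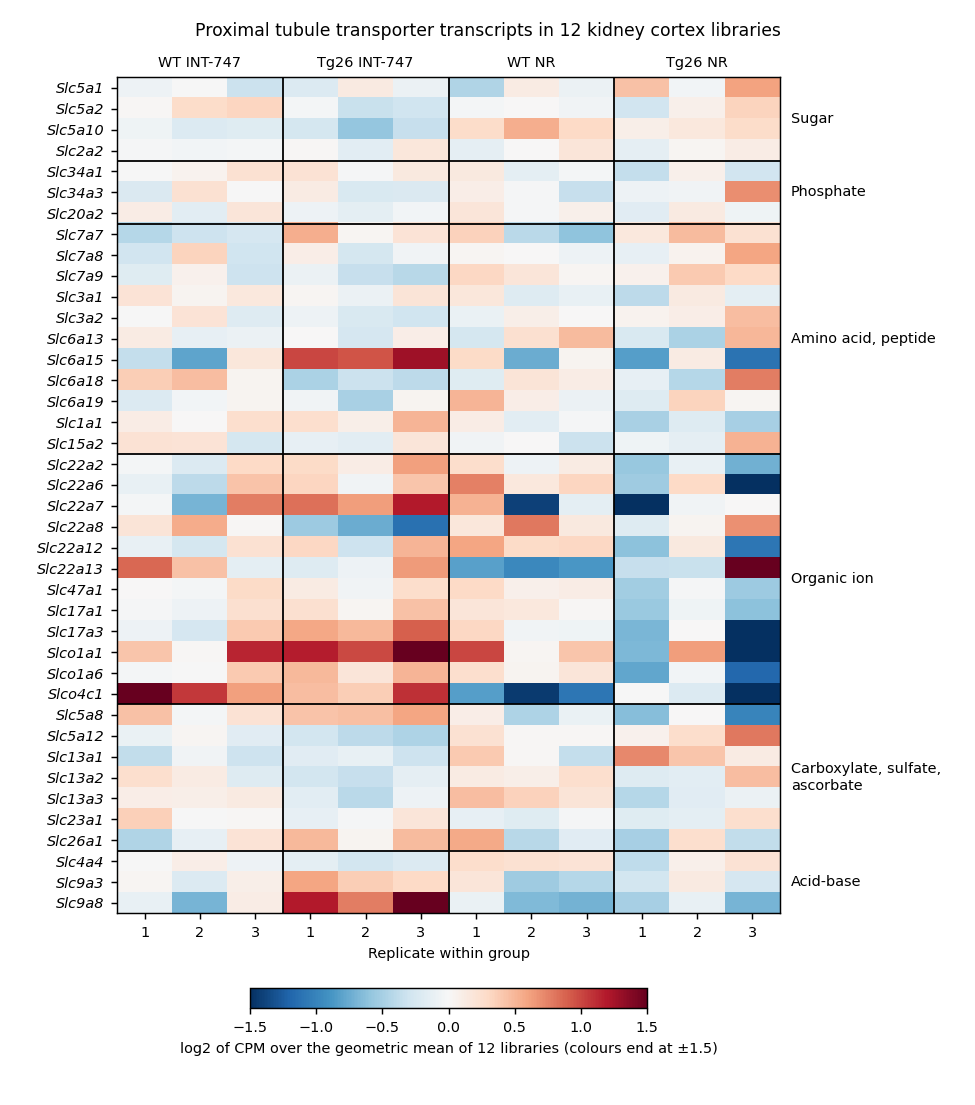
Log2 ratio of each transporter's CPM to its geometric mean over the 12 libraries, with genes in rows by substrate and replicates in columns by group. The organic ion rows hold the widest colours, with Slco1a1 dark blue in Tg26 NR replicate 3, and Slc9a8 and Slc6a15 are red in the 3 Tg26 INT-747 columns.

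In 4 pairs of neighbouring members the genes lie less than 100 kb apart, and 2 of these pairs are organic ion carriers. Slc22a8 and Slc22a6, which both encode basolateral organic anion exchangers, lie 6.2 kb apart on chromosome 19, and Slc17a3 and Slc17a1 lie 7.0 kb apart on chromosome 13. The others are the amino acid carriers Slc6a18 and Slc6a19 (1.7 kb apart on chromosome 13), and Slc22a6 with the amino acid transporter subunit Slc3a2 (78.6 kb). The promoters of Slc22a6 and Slc22a8 are printed because these neighbours encode related exchangers and are described together below, that of Slc5a10 because its treatment difference passed in most of the fits described below, and that of Slco1a1 because Tg26 NR replicate 3 lay farthest below the other libraries for it. Each is the 250 bases before the gene's start as RefSeq gives it (GRCm38.p6), 5′ to 3′ on the gene's strand. The Slc22a8 window lies within the gene as GENCODE places it, from 8591254 to 8611835, and Slc5a10 has 2 starts in RefSeq's table, of which the first is shown. Capitals mark GTTAAT, or ATTAAC on the other strand, which is the half-site of HNF1, a transcription factor of proximal tubule and liver.
Slc22a6, chr19:8617746-8617995, plus strand: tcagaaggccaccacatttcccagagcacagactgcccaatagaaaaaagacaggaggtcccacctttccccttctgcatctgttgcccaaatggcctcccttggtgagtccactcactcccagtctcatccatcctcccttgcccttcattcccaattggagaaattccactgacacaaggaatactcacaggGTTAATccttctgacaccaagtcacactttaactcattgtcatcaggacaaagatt
Slc22a8, chr19:8592932-8593181, plus strand: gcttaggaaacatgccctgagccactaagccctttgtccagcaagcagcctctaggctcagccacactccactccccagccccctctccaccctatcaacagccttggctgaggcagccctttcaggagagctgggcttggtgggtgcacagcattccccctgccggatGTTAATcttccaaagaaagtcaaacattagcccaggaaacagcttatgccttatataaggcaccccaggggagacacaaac
Slc5a10, chr11:61720800-61721049, minus strand: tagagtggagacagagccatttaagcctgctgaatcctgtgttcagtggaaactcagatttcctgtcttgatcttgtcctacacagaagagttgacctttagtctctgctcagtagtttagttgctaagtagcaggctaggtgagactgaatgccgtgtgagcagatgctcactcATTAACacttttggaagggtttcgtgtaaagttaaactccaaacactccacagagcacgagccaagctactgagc
Slco1a1, chr6:141946963-141947212, minus strand: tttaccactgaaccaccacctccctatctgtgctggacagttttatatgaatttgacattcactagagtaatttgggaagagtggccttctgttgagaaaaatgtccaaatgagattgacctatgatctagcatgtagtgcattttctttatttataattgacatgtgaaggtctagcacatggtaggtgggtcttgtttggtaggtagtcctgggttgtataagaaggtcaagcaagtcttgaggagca
The half-site lies at bases −56 to −51 in Slc22a6, −81 to −76 in Slc22a8 and −75 to −70 in Slc5a10, and these letters are not in the Slco1a1 window. RefSeq promoters were matched for 31 of the 40 members. The half-site occurred in 6 of those 31 (19.4%), the other three being Slc34a1, Slc6a13 and Slc7a7, against 7.49% of 27025 genes. The full HNF1 site, GTTAAT and ATTAAC with 1 base between them, occurred in 0 members and 0.0111% of all genes. The HNF4 letters CAAAGTCCA occurred in 1 member, Slc3a1 (3.23%), against 0.451%, and the androgen receptor letters, AGAACA and TGTTCT with 3 bases between them, in 0 members and 0.0111% of genes. All motifs were searched on both strands, and the HNF1 half-site lies within the full site. A match describes the letters only.

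Sodium-proton exchange, amino acid, organic ion, monocarboxylate and sugar carriers were among the transporters that differed between INT-747 and NR in Tg26 mice. In that comparison 10 of the 40 members passed an adjusted p of 0.05, 7 higher and 3 lower under INT-747, where 4.38% of all genes tested passed (2.9% higher and 1.48% lower). The median log2 change of the members was 0.01 and that of all genes −0.04, and without Tg26 NR replicate 3 the members' median was 0.15. When Tg26 NR replicate 3 was left out only Slc5a12 passed (0.393% of all genes did), while all 10 kept their direction with adjusted p between 0.0491 and 0.107. As single libraries were left out, the share of all genes called ran from 0% to 14.5%, and the number of members that passed from 0 to 20. That number was 0 without Tg26 INT-747 replicate 1 or 3, 1 without Tg26 NR replicate 1 or WT INT-747 replicate 1, and 4 or 5 without WT NR replicate 2 or 3 or WT INT-747 replicate 2. It was 20 without Tg26 NR replicate 2, where 14.5% of all genes were called. No member passed with the replicate block (0.452% of all genes did) or in a fit of only the Tg26 groups (0%). With the injury score as a covariate, added after the data were seen, Slc5a10 and Slc5a12 passed, both lower, beside 0.204% of all genes. Other lists differed as well: 16 of 17 injury genes (median log2 −0.94), 13 of 14 macrophage markers (−0.78), 7 of 7 distal convoluted tubule, 8 of 8 principal cell and 9 of 9 intercalated cell markers were lower under INT-747, and 19 of 28 proximal tubule identity genes were higher (0.29). Distal convoluted tubule markers summed to 1191 to 1284 CPM under INT-747 and 1080, 1236 and 2442 CPM under NR, the last in Tg26 NR replicate 3. Intercalated cell markers summed to 241 to 298 and 288, 295 and 535 CPM, and principal cell markers to 254 to 296 and 382, 329 and 539 CPM. Without that library the distal and intercalated ranges overlapped between treatments, and the principal cell ranges did not. Injury genes summed to 632 to 1232 CPM under INT-747 and 1065 to 2469 CPM under NR, and macrophage markers to 289.6 to 1042 and 234 to 1666 CPM. Tg26 NR replicate 3 had 1546 CPM of injury genes and 234 CPM of macrophage markers, but an injury score, described below, of −0.07.

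The sodium-proton exchanger Slc9a8 had the largest change among the 10. This gene, whose product is found on the brush border and in intracellular membranes (chromosome 2, 167421712 to 167477000, GRCm38), was at 186, 139 and 235 CPM in the Tg26 mice under INT-747 and 57.9, 75.6 and 50.2 CPM in those under NR, which do not overlap. Of all genes, 15.4% were higher and 12.5% lower under INT-747 in Tg26 mice without overlap. In WT mice Slc9a8 was at 75.3, 50.2 and 88.6 CPM under INT-747 and 75.9, 51.6 and 50.0 CPM under NR. The Tg26 INT-747 mice were thus above every other library, 3.05-fold over Tg26 under NR (log2 1.61, SE 0.27, adjusted p = 0.0262). Slc9a3, the main apical exchanger for sodium and protons, had 165, 141 and 135 CPM against 90.1, 120.1 and 92.1 CPM and did not pass (log2 0.54, SE 0.18, adjusted p = 0.0943). Slc4a4, the basolateral sodium-bicarbonate cotransporter, stayed within overlapping ranges, 768 to 844 CPM and 717 to 1086 CPM (log2 −0.20, adjusted p = 0.348; without Tg26 NR replicate 3, log2 −0.10, adjusted p = 0.657).

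Among the 11 amino acid and peptide carriers 2 passed with higher and 1 with lower levels under INT-747 than under NR. In direction alone 3 were higher and 8 lower (median log2 −0.17), and 5 and 6 without Tg26 NR replicate 3 (−0.05). Slc6a15, a carrier of branched-chain amino acids and proline best known in brain, was at 70.9, 67.8 and 85.4 CPM in Tg26 mice under INT-747 and 19.9, 38.4 and 16.4 CPM under NR. WT mice had 27.7, 20.4 and 39.6 CPM under INT-747 and 43.3, 21.1 and 36.3 CPM under NR, so the 3 Tg26 INT-747 libraries were the 3 highest (log2 1.59, SE 0.36, adjusted p = 0.0433). The glutamate carrier Slc1a1 was at 300.3, 268 and 358 CPM under INT-747 and 179.9, 220.2 and 178 CPM under NR, without overlap (log2 0.68, SE 0.13, adjusted p = 0.0287), while its WT values of 253 to 300.2 and 226 to 270.2 CPM overlapped. Slc7a9, the light chain of the apical cystine transporter, was lower: 112, 93.6 and 88.8 CPM under INT-747 against 125, 156 and 147 CPM under NR (log2 −0.54, SE 0.13, adjusted p = 0.0447). In WT mice Slc7a9 was at 105, 125 and 95.9 CPM under INT-747 and 147, 135 and 121 CPM under NR, where the ranges overlap. Its heavy-chain partner Slc3a1 had overlapping ranges, 484 to 591 CPM and 393 to 565 CPM (log2 0.17, adjusted p = 0.457).

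The organic ion class held 3 of the 7 members that passed with higher levels under INT-747, and 10 of its 12 members had a positive log2 change (46.1% of all genes did), with a median of 0.72. Without Tg26 NR replicate 3, 11 of the 12 were positive and the median was 0.58. Slco1a6, a member of the organic anion transporting polypeptides, was at 999, 809.8 and 1014 CPM in Tg26 mice under INT-747 and 414, 695 and 315 CPM under NR (log2 0.99, SE 0.24, adjusted p = 0.046). The basolateral organic cation carrier Slc22a2 was at 382, 340.0 and 479.9 and 211, 291 and 191 CPM (log2 0.80, SE 0.19, adjusted p = 0.0428). Slc17a1, which transports urate and other anions, was at 756, 657 and 874 and 437, 617 and 419.8 CPM (log2 0.63, SE 0.16, adjusted p = 0.0493). All 3 genes had non-overlapping Tg26 groups, as had 15.4% of all genes with higher values under INT-747. The female-pattern library was the lowest NR value for each of the 3. WT mice had 698, 712 and 937 CPM under INT-747 and 847, 736 and 810.4 CPM under NR for Slco1a6, 307, 272 and 387 CPM under INT-747 and 378, 299 and 340.3 CPM under NR for Slc22a2 and 635, 611 and 762 CPM under INT-747 and 729, 717 and 652 CPM under NR for Slc17a1, ranges that overlap between treatments in each case. The other two members of this class, the basolateral anion exchanger Slc22a8 and the apical carrier Slc22a13, had negative log2 changes. Slc22a8 had 376, 329 and 253 CPM under INT-747 and 480.2, 565 and 883 CPM under NR and missed the threshold (log2 −1.01, SE 0.26, adjusted p = 0.0525; without Tg26 NR replicate 3, log2 −0.73, adjusted p = 0.112). The log2 difference of Slc22a13 was −0.58 (adjusted p = 0.51) and turned positive without the female-pattern library (log2 0.48, adjusted p = 0.336). The genomic neighbour of Slc22a8, Slc22a6, whose promoter is also printed above, had 2035, 1573 and 2172 CPM and 1126, 2014 and 535 CPM, which overlap (log2 0.65, SE 0.40, adjusted p = 0.307). Without the female-pattern library the Slc22a6 difference was smaller (log2 0.27, adjusted p = 0.584).

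The 2 monocarboxylate carriers changed in opposite directions. Slc5a8, the high-affinity sodium-lactate cotransporter, was at 295, 298 and 328 CPM in Tg26 mice under INT-747 and 140.1, 219 and 110.0 CPM under NR (log2 0.97, SE 0.23, adjusted p = 0.0433). Its low-affinity relative Slc5a12 was at 225, 208 and 198 and 286, 328 and 472 CPM, lower under INT-747 (log2 −0.79, SE 0.16, adjusted p = 0.0299). WT mice had 296, 213 and 254 CPM under INT-747 and 234, 158 and 203 CPM under NR for Slc5a8 and 255, 278 and 242 CPM under INT-747 and 319.6, 276 and 277 CPM under NR for Slc5a12, overlapping between treatments for both. The highest Slc5a12 value was that of the female-pattern library, and without it the gene was still lower under INT-747 (log2 −0.57, adjusted p = 0.0491).

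**Figure D2:**
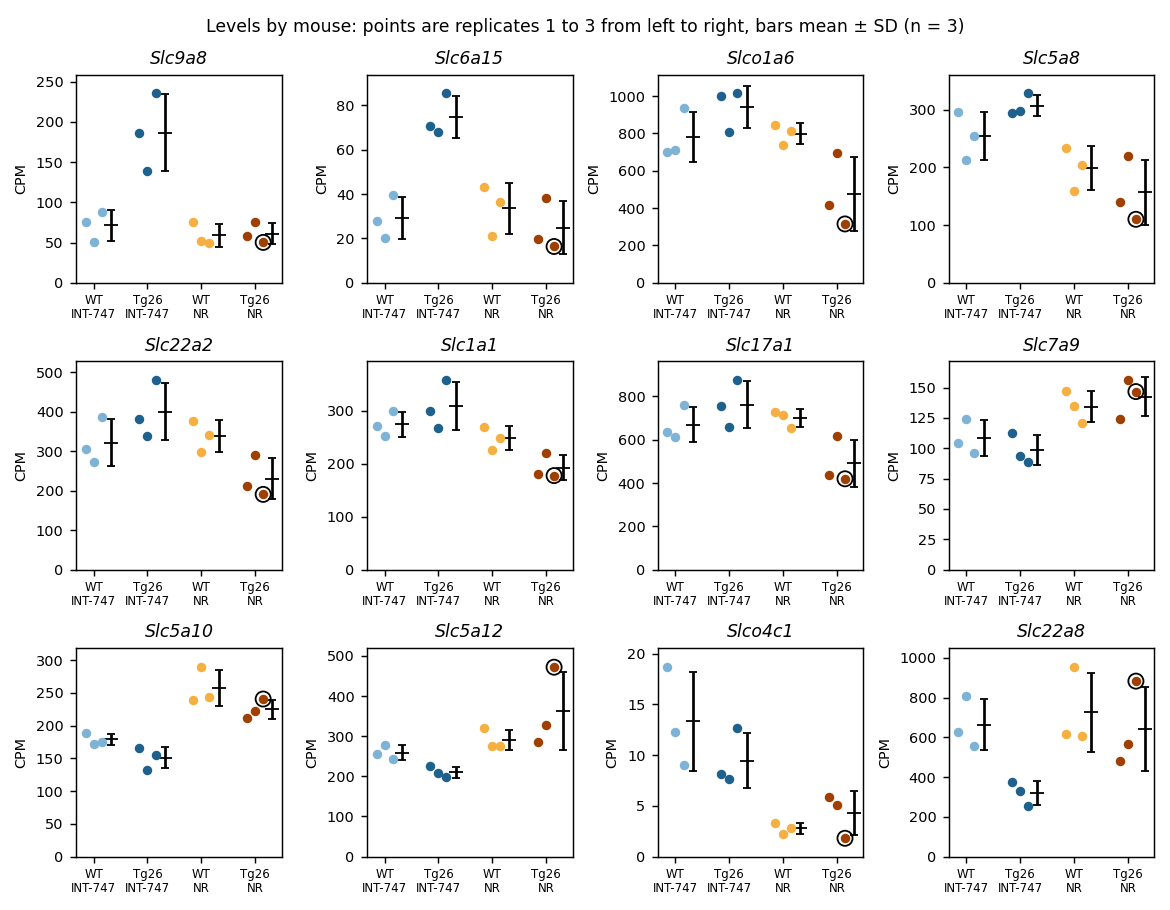
CPM of 12 transporters in each of the 12 libraries, on linear axes from 0: the 10 that passed between treatments in Tg26 mice, and Slco4c1 and Slc22a8. Points are libraries, bars are mean ± SD of 3, and the ring marks Tg26 NR replicate 3, which is the lowest or highest Tg26 NR value in 9 of the 10 called genes.

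Slc5a10, a sodium-coupled carrier of mannose and fructose (chromosome 11, 61672781 to 61720826, GRCm38), was lower under INT-747 than under NR in both genotypes. It was at 189, 172 and 175 CPM in WT and 165, 133 and 156 CPM in Tg26 mice under INT-747. Under NR it was at 239, 289 and 244 CPM in WT and 211, 222 and 241 CPM in Tg26 mice, so that all 6 NR libraries were above all 6 INT-747 libraries. With both genotypes joined in this way, 0.427% of all genes were lower and 0.56% higher under INT-747 without overlap. The log2 difference of Slc5a10 was −0.57 in Tg26 mice (adjusted p = 0.0287), −0.52 in WT mice (adjusted p = 0.265) and −0.55 averaged over genotypes (SE 0.08, adjusted p = 0.0203). In the averaged comparison 2 members passed, against 0.427% of all genes, and without Tg26 NR replicate 3 it was 3, with Slc5a12 as the third, against 0.736%. Slc5a10 also passed in 11 of 12 fits that left out a library, and missed only without WT INT-747 replicate 1 (adjusted p = 0.0557). The other three sugar carriers, Slc5a1, Slc5a2 and the basolateral glucose uniporter Slc2a2, did not pass.

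The second was Slco4c1, a basolateral organic anion carrier known from human and rat kidney to take up cardiac glycosides and thyroid hormone. It was the least abundant member, at 18.7, 12.3 and 9.05 CPM in WT and 8.13, 7.63 and 12.6 CPM in Tg26 mice under INT-747. Under NR it was at 3.33, 2.19 and 2.78 CPM in WT and 5.87, 5.10 and 1.80 CPM in Tg26 mice, and no NR library reached the INT-747 range (log2 1.71, SE 0.29, adjusted p = 0.0387). Of all genes, 0.56% were higher under INT-747 without overlap over both genotypes. Slco4c1 was also called without Tg26 NR replicate 3 (log2 1.51, adjusted p = 0.0197), but leaving out single libraries kept the call in 4 of 12 fits, with adjusted p up to 0.136. In WT mice alone 0 members passed, against 0.0127% of all genes. Unadjusted p was under 0.05 for 4 members, Slco4c1, Slc22a13, Slc5a10 and Slc7a9, beside 5.01% of all genes. DESeq2 called 2 members, beside 0.388% of all genes. The WT difference for Slco4c1 was log2 2.27 (SE 0.42, adjusted p = 0.17), and in the fit without Tg26 NR replicate 3, which is not in this comparison, it was called (log2 2.27, adjusted p = 0.0243, beside 0.0312% of all genes).

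**Figure D3:**
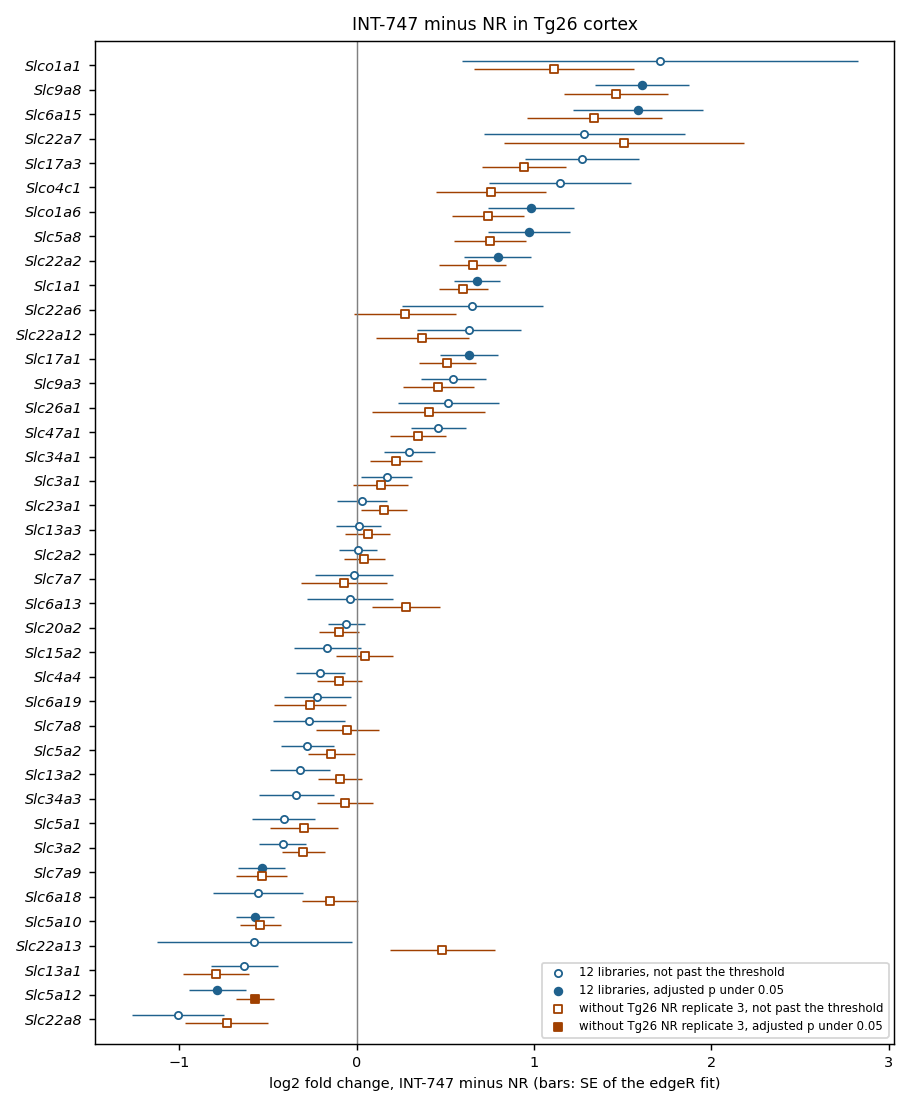
Log2 fold change of INT-747 minus NR in Tg26 mice with its SE for all 40 transporters, from 12 libraries (circles) and without Tg26 NR replicate 3 (squares); filled symbols passed an adjusted p of 0.05. The 10 filled circles kept their side of 0 without that library, and Slc5a12 was the only filled square.

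Tg26 and WT mice under INT-747 were compared to see which transporters differed with the disease under the FXR agonist. The members were balanced, 20 higher (51.7% of all genes were) and 20 lower in Tg26 mice, with a median log2 change of 0.00 beside 0.01 for all genes. None passed, where 0.267% of all genes did. An unadjusted p under 0.05 was found for 9 members and 15.3% of all genes, and DESeq2 called 3 members and 3.34% of all genes. Slc9a8 was nearest, at 187 ± 48.2 CPM in Tg26 against 71.3 ± 19.5 CPM in WT mice (SD, n = 3; log2 1.39, SE 0.26, adjusted p = 0.0709). Slc22a8 was at 319 ± 61.9 against 664 ± 129.7 CPM (log2 −1.06, SE 0.26, adjusted p = 0.134), and the neutral amino acid carrier Slc6a18 at 506 ± 27.2 against 819 ± 120.4 CPM (log2 −0.69, SE 0.25, adjusted p = 0.249). The groups did not overlap for any of these, and 12.5% of all genes were higher and 13.5% lower in Tg26 mice without overlap. Without Tg26 NR replicate 3, which is not in this comparison, Slc9a8 (log2 1.38, adjusted p = 0.0402), Slc22a8 (log2 −1.06, adjusted p = 0.0451) and Slc6a18 (log2 −0.70, adjusted p = 0.0445) passed, against 1.22% of all genes. With the clock score described below as a covariate in all 12 libraries, 0 members passed, beside 0.0127% of all genes. The Slc6a18 difference was then log2 −0.19 (adjusted p = 0.931). Across the 11 alternatives besides leaving out each library, the Slc9a8 difference ran from log2 0.97 to 1.42. That of Slc22a8 ran from −1.07 to −0.72.

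Under NR the Tg26 mice were lower than WT for 24 of 40 transporters (51.4% of all genes were lower) and higher for 16, and the median log2 change was −0.12 beside −0.01 for all genes. With that group's replicate 3 left out, 28 were lower and the members' median was −0.11. No member passed and neither did any other gene (0% of 15708), although 3244 genes (20.7%), 9 members among them, had an unadjusted p under 0.05, and DESeq2 called 967 genes with 4 members. Of the 12 organic ion carriers 10 were lower, with a median of −0.53, and −0.41 without Tg26 NR replicate 3. The dicarboxylate carrier Slc13a3 had the smallest p: 1011, 1210.2 and 1286 CPM in Tg26 against 1881, 1725 and 1559 CPM in WT mice, without overlap (log2 −0.56, SE 0.13, adjusted p = 0.125). Of all genes 9.54% were lower in Tg26 mice without overlap. Slc13a3 passed without Tg26 NR replicate 3 (log2 −0.61, adjusted p = 0.0462), where 2.08% of all genes passed. The proton-coupled exchanger Slc47a1, which releases organic cations into urine, was at 500.4, 708 and 493 against 884, 761 and 776 CPM (log2 −0.51, SE 0.16, adjusted p = 0.142; without Tg26 NR replicate 3, log2 −0.40, adjusted p = 0.173). Leaving out Tg26 NR replicate 2 gave 8 called members, and 4.9% of all genes were called in that fit. Lists of other genes differed in the same comparison: 14 of 17 injury genes (median log2 1.85), 14 of 14 macrophage markers (2.05) and 12 of 12 fibroblast and matrix markers (1.61) were higher in Tg26 mice, and 20 of 28 proximal tubule identity genes were lower (−0.14). Injury genes summed to 1065 to 2469 CPM in Tg26 and 602 to 802 CPM in WT mice under NR, macrophage markers to 234 to 1666 and 210.1 to 235 CPM. For Tg26 NR replicate 3 the injury sum (1546 CPM) and the injury score described below (−0.07) differed. Havcr1 was at 0.88 and Lcn2 at 0.73 CPM in that library, and its macrophage markers summed to 234 CPM. With the injury score described below as a covariate, added after the data were seen, the members' median was 0.13 in place of −0.12.

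**Figure D4:**
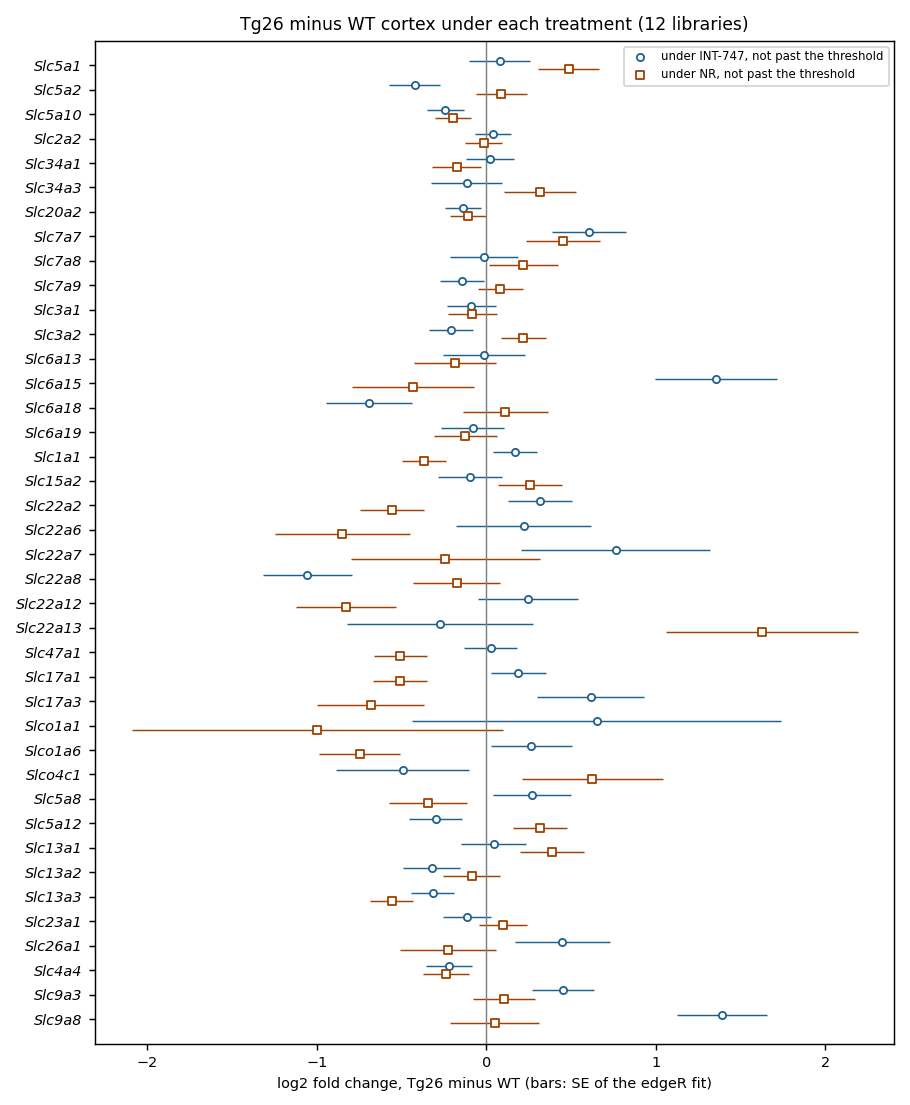
Log2 fold change of Tg26 minus WT with its SE for all 40 transporters, under INT-747 (circles) and under NR (squares), by substrate from sugar at the top to acid-base at the bottom. No symbol is filled because no member passed an adjusted p of 0.05; Slc9a8 and Slc6a15 lie farthest to the right under INT-747.

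Averaged over the treatments, 0 members passed between genotypes (0.446% of all genes passed). An unadjusted p under 0.05 was found for 8 members and 20% of all genes. DESeq2 called 4 members and 7.61% of all genes. The members' log2 changes ran from −0.62 to 0.72, and the 2 members of smallest p in each substrate class are described. The ends of that range were Slc22a8 (log2 −0.62, SE 0.18, adjusted p = 0.109) and Slc9a8 (log2 0.72, SE 0.18, adjusted p = 0.0952). Slc22a8 was at 629, 808 and 556 CPM under INT-747 and 617, 953 and 606 CPM under NR in WT mice, so that Tg26 NR replicates 2 and 3, at 565 and 883 CPM, were within the WT range and the other Tg26 libraries below it. Slc47a1 was at 781, 694 and 866 CPM in Tg26 and 723, 703 and 875 CPM in WT mice under INT-747, which overlap (averaged log2 −0.24, adjusted p = 0.247). Averaged changes of Slc6a15 (log2 0.46, adjusted p = 0.347) and Slc5a10 (log2 −0.22, adjusted p = 0.145) did not pass. Slc13a3 was at 1219.7, 1026 and 1288 CPM in Tg26 and 1457, 1442 and 1499 CPM in WT mice under INT-747, and with the NR values above all 6 Tg26 libraries were below all 6 WT libraries (log2 −0.44, SE 0.09, adjusted p = 0.0624). With both treatments joined in this way, 0.707% of all genes were lower and 0.516% higher in Tg26 mice without overlap. The citrate carrier Slc13a2 was at 100.2, 95.8 and 111 and 106, 109 and 168 CPM in Tg26 mice under INT-747 and NR, against 145, 133 and 107 and 132, 129.6 and 145 CPM in WT mice (log2 −0.20, SE 0.12, adjusted p = 0.369). Slc7a7, the basolateral light chain that exports cationic amino acids, was at 231, 162 and 183 and 178, 219 and 185 CPM in Tg26 mice. Its WT values were 118, 128 and 134 and 202, 119 and 104 CPM, where WT NR replicate 1 lay among the Tg26 values (log2 0.53, SE 0.15, adjusted p = 0.108). The clock score of that library, described below, was 3.25, against −0.61 to 0.66 in the other WT libraries. Slc5a1 was at 50.3, 63.6 and 54.5 and 78.8, 56.6 and 88.6 CPM in Tg26 mice against 55.1, 58.0 and 46.4 and 42.4, 63.1 and 54.5 CPM in WT mice (log2 0.28, SE 0.13, adjusted p = 0.244).

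Neither phosphate carrier named by this rule separated the genotypes. Slc34a1, the main apical phosphate carrier, was at 7873, 6715 and 7529 and 5297, 7144 and 5559 CPM in Tg26 mice under INT-747 and NR, against 6760.2, 7063 and 7955 and 7514, 6162 and 6647 CPM in WT mice (log2 −0.08, SE 0.10). The widely expressed carrier Slc20a2 was at 55.3, 52.8 and 56.8 and 51.8, 64.2 and 55.7 CPM against 63.1, 52.4 and 66.0 and 66.0, 57.4 and 61.6 CPM (log2 −0.12, SE 0.07). Groups overlapped between genotypes for both genes under each agent. Slc4a4 was at 844, 768 and 808 and 717, 985 and 1086 CPM in Tg26 mice, against 926, 1002 and 888 and 1116, 1095 and 1076 CPM in WT mice (log2 −0.23, SE 0.10, adjusted p = 0.218). Without Tg26 NR replicate 3 the averaged genotype comparison called Slc13a3, Slc6a18, Slc22a8, Slc9a8 and Slc13a2 (log2 −0.32 for the last), where 7.63% of all genes passed.

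The difference between the genotype effects under the 2 agents was tested as an interaction. It called 0 members and 0% of all genes, although 15 members and 2428 genes (15.5%) had an unadjusted p under 0.05 and DESeq2 called 247 genes with 2 members. Slc9a8 (log2 1.34, SE 0.37, adjusted p = 0.243), Slc6a15 (log2 1.79, SE 0.51, adjusted p = 0.248) and Slc22a2 (log2 0.87, SE 0.27, adjusted p = 0.254) had the smallest p. The interaction without Tg26 NR replicate 3 also called 0 members and 0% of all genes.

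Tubular injury varied among libraries of 1 group, so transporter levels were also set against an injury score, the mean standardised log2 CPM of 17 injury genes such as Havcr1 and Lcn2. The score ran from −0.70 to 1.72 and was highest in Tg26 NR replicate 1 (1.72), Tg26 INT-747 replicate 2 (0.845) and Tg26 NR replicate 2 (0.745). Within groups 33 of 40 transporters had a negative slope, beside 54.9% of all genes, and the median was −0.15 log2 units per unit of score beside −0.02. In the 11 libraries other than Tg26 NR replicate 3, 34 were negative and the median was −0.21. None passed, where 4.46% of all genes did. An unadjusted p under 0.05 was found for 10 members, all negative (7.02% of all genes were negative with such a p). DESeq2 called 2 members, beside 7.1% of all genes. Slc13a3 (slope −0.22, SE 0.06, adjusted p = 0.066) and Slc4a4 (slope −0.21, SE 0.07, adjusted p = 0.15) had the smallest p. Without Tg26 NR replicate 3 the urate exchanger Slc22a12 (slope −0.56, adjusted p = 0.0185) and the apical neutral amino acid carrier Slc6a19 (slope −0.42, adjusted p = 0.0444) passed, both with negative slopes, where 2.64% of all genes did. Negative slopes were also found for 47 of 58 other proximal tubule carriers (median −0.13), 20 of 28 identity genes (−0.15), 8 of 9 loop of Henle (−0.23), 6 of 7 distal convoluted tubule (−0.30) and 9 of 9 intercalated cell markers (−0.21). Macrophage marker sums were also high in the 3 most injured libraries (1666, 1042 and 889 CPM), and their part in these slopes was not tested.

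Libraries also differed in circadian clock genes, scored as the mean log2 CPM of 10 clock genes minus that of 4 genes of opposite phase. The score was 2.45 to 3.17 in Tg26 mice under INT-747 and −0.19 to 0.66 in WT mice under INT-747, so clock phase and genotype cannot be told apart there. Under NR it was 2.87, 3.57 and 0.58 in Tg26 and 3.25, 0.16 and −0.61 in WT mice. A slope on this score was added after the data were seen. It called 1 member, the taurine and GABA carrier Slc6a13 (−0.22 log2 units per unit, SE 0.04, adjusted p = 0.0407), beside 0.618% of genes called higher and 0.898% lower. Slc6a13 was at 129.6, 109 and 112 CPM in WT and 119, 100.1 and 128 CPM in Tg26 mice under INT-747, and at 99.4, 140.5 and 166 and 102, 86.0 and 169 CPM under NR. Its 3 highest values were in the NR libraries of low score, and without Tg26 NR replicate 3 it did not pass (adjusted p = 0.222). With the clock score in the fit of those 11 libraries, the genotype difference under INT-747 changed sign for Slc7a7 and Slc9a3.

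The library with female sex-linked expression held the extreme values of many transporters. It was above the other 11 libraries for 11 members and below them for 12, where 16.8% and 16.6% of all genes tested were. Slco1a1, an organic anion carrier known to be male-biased in mouse kidney, was at 5.24 CPM there against 332 to 1535 CPM in the other 11 libraries, with 332 and 818 CPM in its group mates. It was 63.3-fold below the nearest library. Slc22a6 stood at 535 CPM, against 1126 to 2753 elsewhere, and Slc17a3, an anion transporter that exports urate, at 205 CPM, against 368 to 1099. Slc22a13, which encodes an organic anion carrier of the apical membrane, was the 1 member over 1.5-fold above the others, at 90.9 CPM against 13.5 to 47.9 CPM. In WT mice Slc22a13 was at 47.9, 35.7 and 23.9 CPM under INT-747 and 15.0, 13.5 and 14.4 CPM under NR, without overlap. Of all genes 6.65% were higher under INT-747 without overlap in WT mice. In Tg26 mice Slc22a13 was at 23.0, 24.9 and 41.1 CPM under INT-747 and 20.8 and 20.9 CPM in the other NR libraries. Slc17a3 was at 565, 497 and 778 CPM under INT-747 and 733, 572 and 568 CPM under NR in WT mice, and at 886, 832 and 1099 CPM under INT-747 and 368 and 594 CPM in the other NR libraries of Tg26 mice. WT values of Slc22a6 were 1513, 1247 and 2202 CPM under INT-747 and 2753, 1829 and 2038 CPM under NR, which overlap. Slco1a1 was at 708, 534 and 1169 CPM under INT-747 and 1059, 540.2 and 705 CPM under NR in WT mice and 1197, 1053 and 1535 CPM in Tg26 mice under INT-747. Past 1.5-fold outside the range, 1 member was above and 3 were below, beside 2.22% and 2.95% of all genes. With 1 such library, sex cannot be told apart from this mouse.

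**Figure D5:**
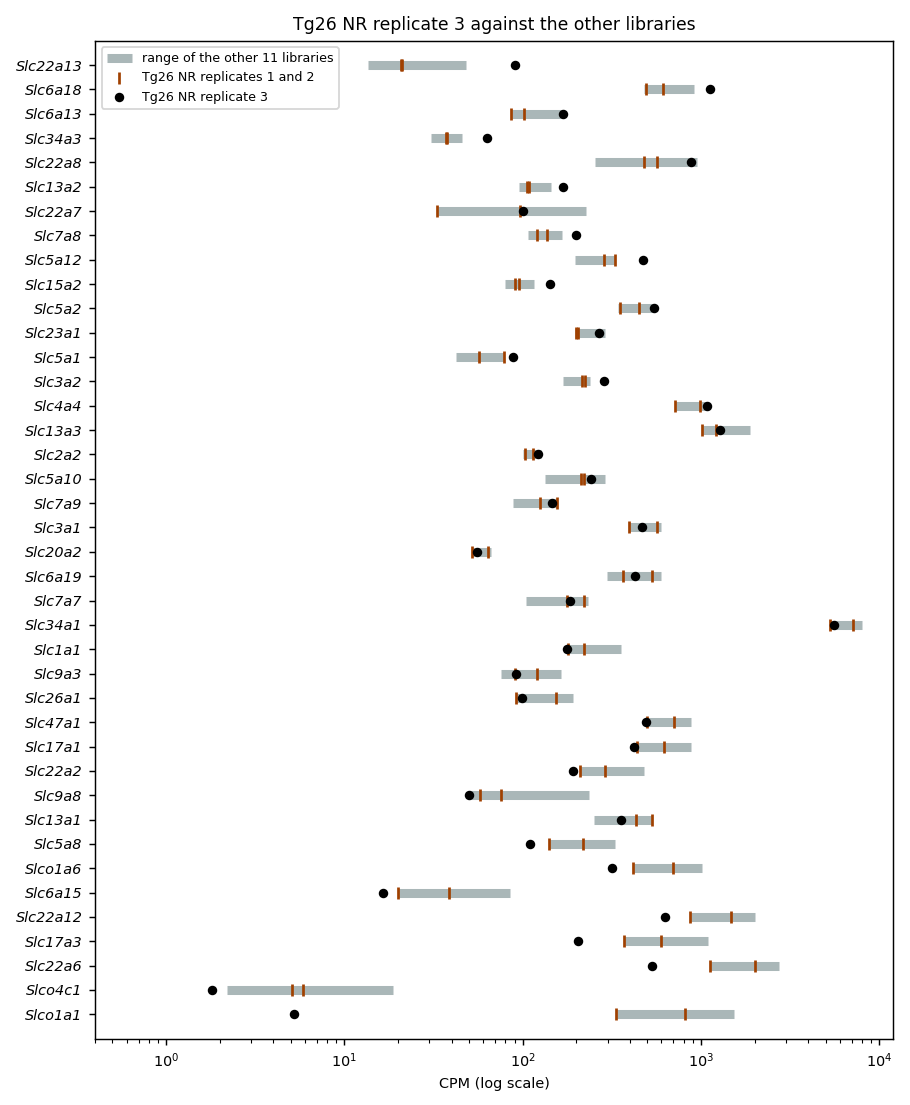
CPM on a log axis of each transporter in Tg26 NR replicate 3 (black points), against the range of the other 11 libraries (grey bars) and its group mates (brown ticks), in order of the ratio to the mean of the group mates. Slco1a1 lies at the bottom, far left of its bar, and Slc22a13 at the top, to the right.

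Other proximal tubule carriers were listed for comparison, 58 of 60 being tested. In Tg26 mice 1 of these passed, the apical anion exchanger Slc26a6, which was lower under INT-747 (log2 −0.66, SE 0.16, adjusted p = 0.0427; without Tg26 NR replicate 3, −0.64, adjusted p = 0.0777), and the median log2 change was −0.14. Of 31 tested partners and regulators of these carriers, 16 had a positive and 15 a negative log2 change in that comparison. An adjusted p of 0.05 was passed by 4 of the positive and 1 of the negative ones, where 4.38% of all genes passed. Pdzk1, the scaffold that anchors apical carriers, was at 1933, 1806 and 2173 CPM in Tg26 mice under INT-747 and 1156, 1305 and 1107 CPM under NR (log2 0.73, SE 0.13, adjusted p = 0.0274). Nr1h4, which encodes FXR, was higher too (log2 0.76, SE 0.16, adjusted p = 0.0332), as was Fgfr4, a receptor for phosphate-regulating FGFs (log2 0.58, SE 0.11, adjusted p = 0.0287), and the nuclear receptor gene Nr1i3 was lower (log2 −1.96, SE 0.32, adjusted p = 0.0222). The log2 changes without Tg26 NR replicate 3 were 0.66, adjusted p = 0.0554 for Pdzk1, 0.64, adjusted p = 0.0761 for Nr1h4, 0.53, adjusted p = 0.0661 for Fgfr4 and −1.68, adjusted p = 0.0491 for Nr1i3. With the injury score, the carnitine carrier Slc22a5 had a negative slope that passed (slope −0.34, adjusted p = 0.0226). Its slope without Tg26 NR replicate 3 was −0.29, adjusted p = 0.0958.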

How the data were processed

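Messenger RNA of kidney outer cortex was sequenced from stranded TruSeq libraries, per the labels' protocols. The deposited values are RSEM expected counts per gene, not scaled to library size; 0 values were not whole numbers, and the authors' rule for rounding is not given in the sources used here. The submitters' processing notes name bcl2fastq 2.17, cutadapt 1.18, STAR 2.7.0f, RSEM 1.3.1 and mm10, with no order or settings. RSEM divides reads that fit several genes, so values of close relatives (Slco1a1 and Slco1a6) may share reads. All 55450 identifiers and symbols were found in GENCODE mouse release M21, the source of coordinates and exon lengths.

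The 12 libraries entered one edgeR 4.0.16 quasi-likelihood fit in R 4.3.3 (TMM, filterByExpr, robust estimation, a mean per group, 8 residual degrees of freedom, common biological coefficient of variation 0.214), and p was adjusted by Benjamini-Hochberg over 15708 genes. Log2 values and SE come from this fit, and p-values measure the spread between samples of a group, which the labels do not state to be separate animals. Slopes on a score within groups left 7 residual degrees of freedom. The fit was tested on simulated data. It recovered 53% of 2-fold and 89% of 4-fold changes between genotypes under INT-747. Between treatments it recovered 56% and 84% in Tg26 mice, and 79% and 91% averaged over genotypes. Unchanged genes called numbered 11, 7 and 5 in the same order. Per-library values were given for members that passed in any comparison, the 2 of smallest genotype p per substrate class and those outside the range of the other 11 libraries by over 1.5-fold in Tg26 NR replicate 3; other genes were at most 4 of smallest p per list, and further values were chosen after being seen. Members, lists and tests were chosen with earlier results of these data known. Alternatives were RLE factors, 2 other filters, DESeq2 1.42.0, limma-voom 3.58.1, no robust estimation, a replicate block, the clock score, only the 2 groups compared and leaving out each library. Lists of other cell types served as measured background. A further injury-score result, for a listed carrier other than Slc22a5, is not reported here.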

Additional observations from a re-analysis of the deposited data

How the results depend on the processing

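Single-member results kept their direction and their side of the threshold in 1081 cases, passed it anew in 68, lost it in 122 and reversed in 3. The reversals came with the clock score in 11 libraries: Slc7a7 (log2 −0.024) and Slc9a3 (−0.043) under INT-747, and Slc7a7 (−0.0058) averaged over treatments. The cause of these and the following changes was not tested. Of 18 same-numbered pairs of libraries, 4 correlated above 0.1 (from −0.23 to 0.26) in their deviations from group means. Differently numbered pairs were not set beside them, so this cannot decide whether replicate numbers pair the samples. Percentages in brackets below are the share of all genes called in the same fit. With the replicate block 0 members were called between treatments in Tg26 mice (0.452%), 1 averaged over genotypes (0.236%) and 4 with the clock score (2.9%). DESeq2 called 3 members between genotypes under INT-747 (3.34%), 4 under NR (6.16%) and 4 averaged (7.61%). Between treatments it called 2 in WT mice (0.388%), 17 in Tg26 mice (13.8%) and 9 averaged (4.94%). It called 2 in the interaction (1.57%), 2 with the injury score (7.1%) and 6 with the clock score (5.5%). A fit of only the 2 groups compared called 5 between genotypes under INT-747 (4.05%) and 0 between treatments in Tg26 mice (0%). No filter called 1 member between genotypes on average (0.365%) and 2 with the clock score (1.21%). Limma-voom called 1 between treatments on average (0.344%) and 1 with the injury score (5.91%). The clock score as a covariate called 9 between treatments on average (4.07%), and in 11 libraries 6 on average (2.22%) and 1 in WT mice (0.0624%). The injury score as a covariate and the clock score in 11 libraries were added after the data were seen. With the former, 2 were called between treatments in Tg26 mice, Slc5a10 and Slc5a12 (0.204%). The injury score gave median log2 changes of 0.13 between genotypes under NR, −0.12 between treatments in Tg26 mice and −0.085 in the interaction; the clock score in 11 libraries gave 0.17 in Tg26 mice and −0.19 between genotypes on average. Leaving out 1 library at a time gave 0 to 3 called members between genotypes under INT-747 (median log2 −0.05 to 0.06), 0 to 8 under NR (−0.14 to 0.00) and 0 to 5 averaged (−0.14 to −0.02). Between treatments it gave 0 to 1 in WT mice (−0.10 to 0.01), 0 to 20 in Tg26 mice (−0.074 to 0.15) and 0 to 8 averaged (0.00 to 0.09), and it gave 0 to 3 in the interaction (−0.04 to 0.14), 0 to 2 with the injury score and 0 to 1 with the clock score. In the same order, shares of all genes called in those fits were 0 to 1.22%, 0 to 4.9% and 0 to 7.63% between genotypes. Between treatments they were 0.0124 to 0.0312%, 0 to 14.5% and 0.056 to 2.49%. For the interaction, injury score and clock score they were 0 to 1.09%, 0.679 to 4.99% and 0.312 to 1.94%. All 40 members had more than 10 counts in every library, and each group held 3 samples.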
